A study of Homo sapiens with 6 samples.

Results

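Genes of fatty acid synthesis and desaturation were followed in K562, an established leukaemia line that keeps erythroid and megakaryocytic traits, under 2 genotypes of the transcription factor RUNX1. There were 3 libraries of RUNX1 R320* cells, whose RUNX1 carries a premature stop codon, and 3 of cells with wild-type RUNX1 (WT). All cells grew in RPMI-1640 with 10% fetal bovine serum and antibiotics, with no other agent named. The set was 10 genes, ACLY, ACACA, FASN, SCD, ACSS2, AACS, ELOVL5, ELOVL6, FADS1 and FADS2, taken by name. They were chosen with earlier results of these data known, so comparisons of them with all genes tested are description only. All 10 were found among the 60131 genes of the deposited RPKM table and, by Entrez identifier, among the 28395 genes of the deposited table of normalized counts. The sources used here do not give how the R320* change was made, whether a genotype is 1 clone, or whether replicates were cultured apart. P-values therefore reflect the spread among these libraries alone, which may be technical.

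Fatty acids are built in the cytosol from acetyl-CoA. ATP citrate lyase and acetyl-CoA synthetase make that acetyl-CoA, acetyl-CoA carboxylase turns it into malonyl-CoA, and fatty acid synthase joins the units into palmitate. Elongases then lengthen the chain and desaturases place double bonds in it, in a saturated and monounsaturated branch and, for essential fatty acids from the diet or serum, in a polyunsaturated branch. SREBP factors, released from the endoplasmic reticulum by SCAP and held there by INSIG proteins, are known activators of most of these genes, together with LXR and ChREBP. Proliferating leukaemia cells are known to use both their own synthesis and serum lipids.

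Normalized counts are reads per gene scaled by 1 factor per library, as deposited by the authors. RPKM values are relative to transcript length and library size. Differences below are log2 fold changes of R320* over WT from limma with their standard error (SE), fitted on all genes tested, and a gene was called at an adjusted p below 0.05. Library totals, as whole multiples of each library's smallest value, lay between 29058471 and 31306435, which are reads if that value stands for 1 read. RUNX1 itself had 5209, 5026 and 5261 normalized counts in R320* and 2969, 2922 and 2908 in WT, and a transcript level does not test for the stop codon. Markers of K562 were all tested (10 of 10), and in counts 8 were called higher and 2 lower in R320*. Of all genes tested in counts, 26.4% were called higher and 27.4% lower. In RPKM 6 of these markers were called higher and 2 lower, against 15.1% and 16.8%, with KLF1 and EPOR not called. Their summed RPKM was 15294 to 17577 in R320* and 11101 to 11438 in WT, most of it HBG1 and HBG2. The 2 lower markers in both tables were GATA1 (-0.55 in counts, -0.64 in RPKM) and HBE1 (-0.47 in counts, -0.80 in RPKM). Lymphoid markers (3 of 8 passed the RPKM filter) summed to 24.7 to 36.4 RPKM in R320* and 43.9 to 46.9 in WT, most of it CD3D. Monocyte markers (1 of 6) summed to 3.98 to 5.47 RPKM in R320* and 5.82 to 7.15 in WT, and to 11.8 to 17.9 normalized counts in R320* and 58.6 to 69.8 in WT. Of these LYZ had 0.980, 0 and 0 normalized counts in R320* and 39.7, 54.8 and 49.5 in WT (called lower, limma adjusted p = 1.14e-06), and it was not called in RPKM (-0.46, limma adjusted p = 0.0616). Stromal, endothelial and fat cell markers (3 of 10) summed to 20.4 to 21.9 RPKM in R320* and 24.8 to 25.5 in WT, most of it COL1A2. CD2, S100A8, S100A9, CDH5 and PLIN1 were listed at 0 in all 6 libraries, and the part of other cells in the results below was not tested.

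Promoter windows are shown for 3 genes that were higher in R320* (SCD, ELOVL6 and ACLY) and 1 that was lower (ELOVL5), chosen with their values known, so that a reader can set sequence beside direction. They come from RefSeq on GRCh38.p14 and run from 250 bases before to 50 bases after 1 annotated start per gene, which need not be its outermost, 5′ to 3′. Capitals mark matches, on either strand, to TCACNCCAC (a sterol response element, bound by SREBP), CCAAT (bound by NF-Y), CACGTG (an E-box) or TGTGGT (a RUNX motif). The windows are chr10:100346983-100347282 on the plus strand for SCD, chr4:110198566-110198865 on the minus strand for ELOVL6, chr17:41918973-41919272 on the minus strand for ACLY and chr6:53348901-53349200 on the minus strand for ELOVL5.
SCD: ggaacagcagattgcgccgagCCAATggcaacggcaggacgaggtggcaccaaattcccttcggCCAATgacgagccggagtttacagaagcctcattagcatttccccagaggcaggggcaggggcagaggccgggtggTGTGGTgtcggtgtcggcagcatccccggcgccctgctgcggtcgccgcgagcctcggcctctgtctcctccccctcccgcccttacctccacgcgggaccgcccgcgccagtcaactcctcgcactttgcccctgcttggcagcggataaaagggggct
ELOVL6: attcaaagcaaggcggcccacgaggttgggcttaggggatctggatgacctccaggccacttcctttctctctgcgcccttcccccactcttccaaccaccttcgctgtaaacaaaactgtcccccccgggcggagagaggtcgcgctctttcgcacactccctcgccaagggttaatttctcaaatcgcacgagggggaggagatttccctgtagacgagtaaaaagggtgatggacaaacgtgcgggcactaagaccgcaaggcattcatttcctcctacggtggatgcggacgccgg
ACLY: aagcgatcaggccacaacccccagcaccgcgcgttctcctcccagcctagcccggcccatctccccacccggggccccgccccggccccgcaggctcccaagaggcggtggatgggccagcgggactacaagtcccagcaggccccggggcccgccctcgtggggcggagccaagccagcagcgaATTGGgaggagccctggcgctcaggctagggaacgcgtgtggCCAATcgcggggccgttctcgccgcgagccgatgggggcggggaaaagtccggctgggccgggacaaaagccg
ELOVL5: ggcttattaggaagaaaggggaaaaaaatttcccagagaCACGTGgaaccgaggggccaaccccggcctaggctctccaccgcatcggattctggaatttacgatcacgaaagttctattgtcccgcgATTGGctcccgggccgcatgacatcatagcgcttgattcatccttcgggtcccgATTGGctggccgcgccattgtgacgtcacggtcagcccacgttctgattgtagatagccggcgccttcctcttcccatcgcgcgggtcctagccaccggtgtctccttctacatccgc

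The SCD and ACLY windows held 2 CCAAT matches each, and so did the ELOVL5 window, whose gene was lower in R320*. SCD alone held TGTGGT and ELOVL5 alone CACGTG, while the ELOVL6 window held none of the 4 motifs. Windows were found for 9 of the 10 genes, FASN being the other one. CCAAT was present in 4 of 9, against 36.6% of 11018 promoters of tested genes, and the sterol element in 0 of 9, against 1.08%. TGTGGT was in 1 of 9, against 9.23%, and CACGTG in 1 of 9, against 10.1%. These letter matches did not divide the genes that were higher in R320* from those that were lower, and they say nothing of binding.

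All 10 genes differed between the genotypes in normalized counts, 6 higher and 4 lower in R320*. In RNA from bulk cultures, fewer cells of a type and less RNA per cell cannot be told apart. That reading needs its background, because 53.7% of the 14299 genes tested were called, 26.4% higher and 27.4% lower. A called difference of at least 2-fold was reached by 4 of the 10 genes, against 11.4% of all genes tested (in RPKM by 2, against 7.69%). The libraries of the genotypes did not overlap for 8 of the 10, against 59.8% of all genes tested (in RPKM for 9, against 47.0%). The median absolute log2 fold change was 0.65 for the 10 genes and 0.27 for all genes tested. Each of the 5 listed genes on the route from citrate to monounsaturated fatty acids was higher (ACLY, ACACA, FASN, ELOVL6 and SCD), while in the polyunsaturated branch ELOVL5 and FADS1 were lower and FADS2 was slightly higher. ACSS2 and AACS, which activate acetate and acetoacetate, were also lower. In RPKM all 10 genes had the same direction and 8 were called, 5 higher and 3 lower, against 15.1% and 16.8% of 17769 genes tested (31.9% in all), with FADS2 and ACSS2 not called.

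**Figure D1:**
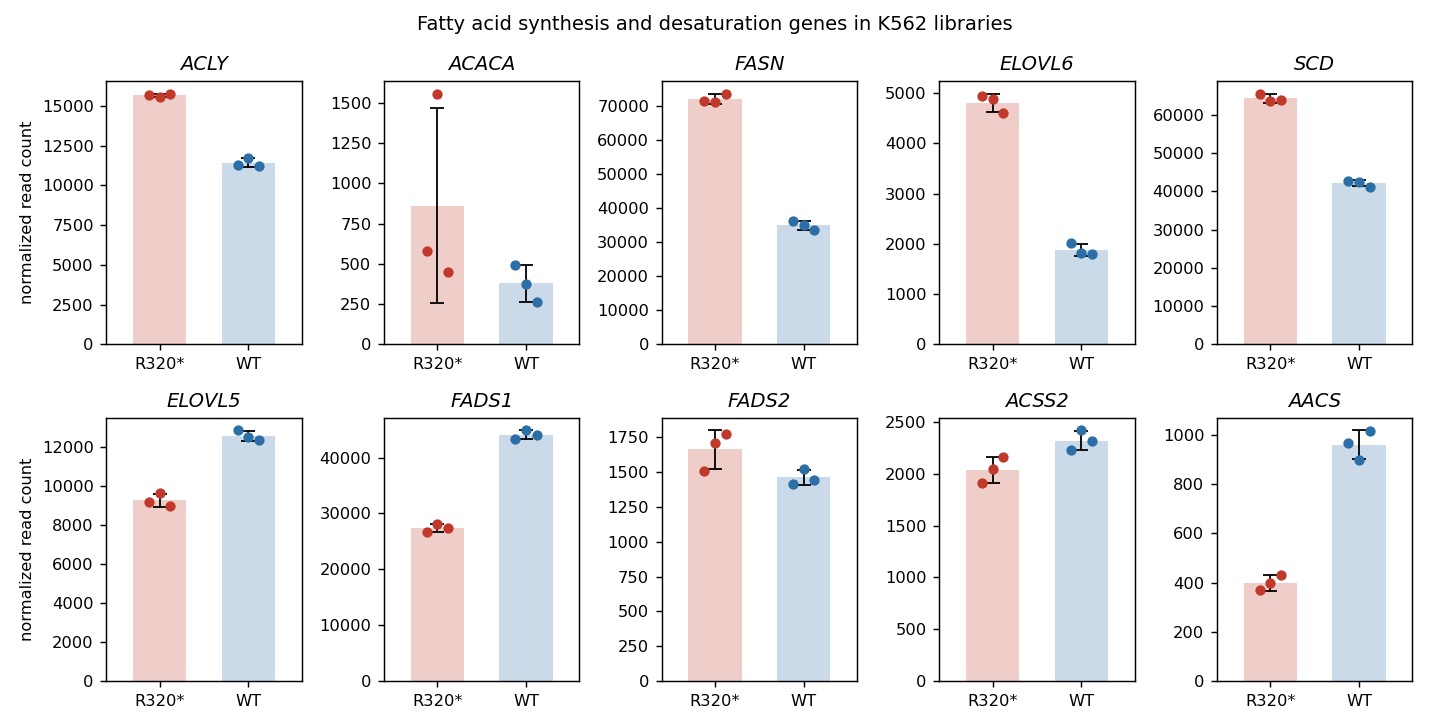
Normalized read counts of the 10 genes in each of 3 R320* (red, left) and 3 WT (blue, right) libraries of K562 cells, with points for libraries, bars for means and error bars for SD. The genotypes overlap for ACACA and FADS2 and are separate for the other 8 genes.

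ACLY (GRCh38.p14 chr17:41866917-41930545, minus strand), which cleaves citrate into acetyl-CoA and oxaloacetate, had 15709.8, 15566 and 15773 normalized counts in the R320* libraries and 11299, 11749 and 11247 in the WT libraries. Every R320* library was above every WT library (log2 fold change 0.46, SE 0.03, limma adjusted p = 5.71e-09). In RPKM it averaged 114 ± 3.10 in R320* and 84.1 ± 1.36 in WT (SD, n = 3 each), a log2 fold change of 0.44.

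ACACA (GRCh38.p14 chr17:37084992-37406836, minus strand), the carboxylase that makes malonyl-CoA and commits acetyl-CoA to synthesis, was measured differently by the deposited tables. Its normalized counts were 579, 1559 and 449 in R320* and 495, 375 and 264 in WT, so that 1 R320* library stood far above the others and the genotypes overlapped. The difference of 1.01 on the log2 scale (SE 0.31) was called, at a limma adjusted p of 0.0122. Without R320* replicate 2 it was 0.48 and not called (limma adjusted p = 0.0677). The call was also lost without WT replicate 3 (0.78, limma adjusted p = 0.0896), when the intensity trend was dropped (adjusted p = 0.169) and with robust moderation (adjusted p = 0.230). Over all alternatives its limma adjusted p ran between 0.000271 and 0.230. In RPKM the libraries were close, at 63.4, 66.0 and 63.9 in R320* and 45.5, 44.9 and 42.2 in WT. There the genotypes did not overlap, and ACACA was higher by 0.54 (log2, SE 0.05, limma adjusted p = 0.000271). ACACA carried few counts for its RPKM. Averaged over the 6 libraries, its ratio of normalized counts to RPKM was 11.4, against 52.4 to 268 for the 9 other genes and a median of 56.0 over 7316 genes with at least 10 RPKM. This ratio grows with transcript length, so genes of unlike length cannot be compared by it directly. Per kb of exon in GENCODE v29 it was 0.88 for ACACA (13.0 kb), against 4.41 (AACS) to 28.6 (FASN) for the 9 others. FADS2, at 5.32, was also at the low end. Tested neighbours of ACACA on chromosome 17 had low ratios too, not corrected for length, at 3.28 for GGNBP2, 2.04 for DHRS11, 5.87 for MRM1, 12.1 for TADA2A, 8.58 for SYNRG and 5.93 for DDX52. The coefficient of variation of ACACA was 70.4% in R320* and 30.6% in WT for normalized counts, and 2.14% in R320* and 3.98% in WT for RPKM.

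FASN (GRCh38.p14 chr17:82078338-82098236, minus strand), the multi-domain synthase that produces palmitate, had 71349, 71009 and 73533 normalized counts in the R320* libraries and 36016, 34848 and 33629 in the WT libraries, with a wide gap between the genotypes and a coefficient of variation of 1.90% in R320* and 3.43% in WT. The mean was 2.07 times that of WT (log2 fold change 1.05, SE 0.03, limma adjusted p = 2.75e-13). In RPKM it averaged 265 ± 11.2 in R320* and 134 ± 3.53 in WT (SD, n = 3 each, log2 fold change 0.98).

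ELOVL6 (GRCh38.p14 chr4:110045846-110199202, minus strand), the elongase that turns palmitate into stearate, had the largest rise of the 10 genes. Its normalized counts were 4939, 4888 and 4606 in R320* and 2009, 1822 and 1789 in WT. No library of a genotype came near the other genotype. In counts ELOVL6 was higher by 1.36 (log2, SE 0.05, limma adjusted p = 1.61e-12) and in RPKM by 1.57 (SE 0.10), where it averaged 61.8 ± 6.68 in R320* and 20.7 ± 1.83 in WT (SD, n = 3 each).

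SCD (GRCh38.p14 chr10:100347233-100364826, plus strand), the stearoyl-CoA desaturase that makes oleate and palmitoleate, had 65562, 63540.0 and 63825 normalized counts in R320* and 42750.1, 42546 and 41220.3 in WT. The genotypes were separate and the libraries of each lay within a narrow band. R320* cells had 1.52 times the WT mean (log2 fold change 0.61, SE 0.03, limma adjusted p = 8.93e-11, and 0.63 in RPKM). FASN, which acts before it, had the greater fold change. The log2 ratio of SCD to FASN within a library averaged -0.16 ± 0.04 in R320* and 0.28 ± 0.03 in WT (SD, n = 3 each), a difference of -0.44, with a two-sided exact permutation p of 0.1, the smallest that 3 against 3 libraries can give.

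ELOVL5 (GRCh38.p14 chr6:53267404-53348950, minus strand), which lengthens polyunsaturated fatty acids, was lower in R320*. Its normalized counts were 9170.2, 9626 and 8972 in R320* and 12832, 12503 and 12333 in WT, without overlap (log2 fold change -0.44, SE 0.04, limma adjusted p = 3.05e-08). It thus went against ELOVL6. The log2 ratio of ELOVL6 to ELOVL5 was -0.94 ± 0.05 in R320* and -2.75 ± 0.06 in WT (SD, n = 3 each), so the ratio was 3.49 times higher in R320* in counts and 3.85 times higher in RPKM (exact permutation p = 0.1 in each table, two-sided, the smallest possible).

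FADS1, the desaturase that completes arachidonate and eicosapentaenoate, had the higher RPKM of the FADS pair and fell. It had 26712, 28078 and 27298 normalized counts in R320* and 43346, 44879.6 and 44110.4 in WT. All R320* libraries lay far below all WT libraries (log2 fold change -0.69, SE 0.03, limma adjusted p = 2.61e-11). RPKM gave the same value, -0.69, with 247 ± 6.56 in R320* and 399 ± 5.49 in WT (SD, n = 3 each). FADS2, the desaturase of the opening step of the polyunsaturated branch, had 1509, 1707 and 1774 normalized counts in R320* and 1418, 1525 and 1446 in WT, and 1 R320* library lay within the WT range. It was called in counts (0.18, SE 0.06, limma adjusted p = 0.0231) and not in RPKM (0.05, 95% interval -0.11 to 0.22, limma adjusted p = 0.605). Its call in counts was also lost without R320* replicate 2 or 3, or WT replicate 1 or 3 (limma adjusted p = 0.0673 to 0.104), and over all alternatives the limma adjusted p ran between 0.00245 and 0.605. In RPKM without WT replicate 3 its log2 fold change was -0.00465. The log2 ratio of FADS2 to FADS1 was -4.04 ± 0.10 in R320* and -4.91 ± 0.03 in WT (SD, n = 3 each, exact permutation p = 0.1, two-sided, the smallest possible).

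The FADS genes lie together on chromosome 11 (GRCh38). FADS1 runs from 61799627 to 61817003 on the minus strand and FADS2 from 61816203 to 61867354 on the plus strand, so their starts overlap head to head and, without strand, reads there cannot be told apart. FADS3, the next tested gene, also had lower counts in R320*, with 5060.1 ± 206 in R320* and 7598 ± 237 in WT (SD, n = 3 each, log2 fold change -0.59, limma adjusted p = 3.88e-09). FEN1, on the other side of FADS1, averaged 4249.8 ± 67.2 normalized counts in R320* and 3736 ± 149 in WT (SD, n = 3 each, log2 fold change 0.19, limma adjusted p = 0.00129), and in GENCODE v29 it shares exons with a FADS2 transcript on the same strand. Of the 50 tested genes nearest to FADS1, 34 had a positive log2 fold change, with a median of 0.15, and 2 were lower than FADS1.

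AACS, the cytosolic ligase that activates acetoacetate for lipid synthesis, had the largest fall of the 10 genes. It had 369, 397 and 433 normalized counts in R320* and 968, 898 and 1016 in WT, and the genotypes were far apart (log2 fold change -1.27, SE 0.09, limma adjusted p = 2.81e-09). RPKM values were 5.41, 5.20 and 8.83 in R320* and 12.9, 12.9 and 12.3 in WT, with 1 R320* library higher than the other two, and the R320* mean was 0.510 times that of WT (log2 interval -1.48 to -0.53, limma adjusted p = 0.00922). AACS lies on chromosome 12 (125065435 to 125143316, GRCh38) in a stretch where most tested genes had lower values in R320*. Its nearest tested neighbours, THRIL and LINC00944, had log2 fold changes of -0.88 and -1.22. Of its 50 nearest tested genes 43 had a negative log2 fold change, 36 were called lower and 1 higher, and their median was -0.44. AACS was 0.82 below that median, and 3 of the 50 were lower than AACS. The part of the region in its fall was not tested.

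ACSS2 (GRCh38.p14 chr20:34874989-34927959, plus strand), the cytosolic and nuclear ligase that makes acetyl-CoA from acetate, had 1909, 2051 and 2158 normalized counts in R320* and 2231, 2421 and 2313 in WT. The genotypes did not overlap, with a small gap, and ACSS2 was lower (log2 fold change -0.19, SE 0.05, limma adjusted p = 0.00807). In RPKM the value was -0.17 (95% interval -0.36 to 0.02) and not called (limma adjusted p = 0.159). Its call in counts was also lost when the intensity trend was dropped (limma adjusted p = 0.0607, and between 0.00304 and 0.159 over all alternatives). GGT7 overlaps an ACSS2 exon on the opposite strand in GENCODE v29 and had a log2 fold change of 0.03 (limma adjusted p = 0.656). The log2 ratio of ACSS2 to ACLY, the alternative sources of cytosolic acetyl-CoA, was -2.94 ± 0.09 in R320* and -2.30 ± 0.03 in WT (SD, n = 3 each). That of AACS to ACSS2 was -2.35 ± 0.03 in R320* and -1.27 ± 0.14 in WT. Each of the 5 ratios compared had an exact permutation p of 0.1 (two-sided), also when adjusted over the 5 pairs, and each kept its direction in RPKM.

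**Figure D2:**
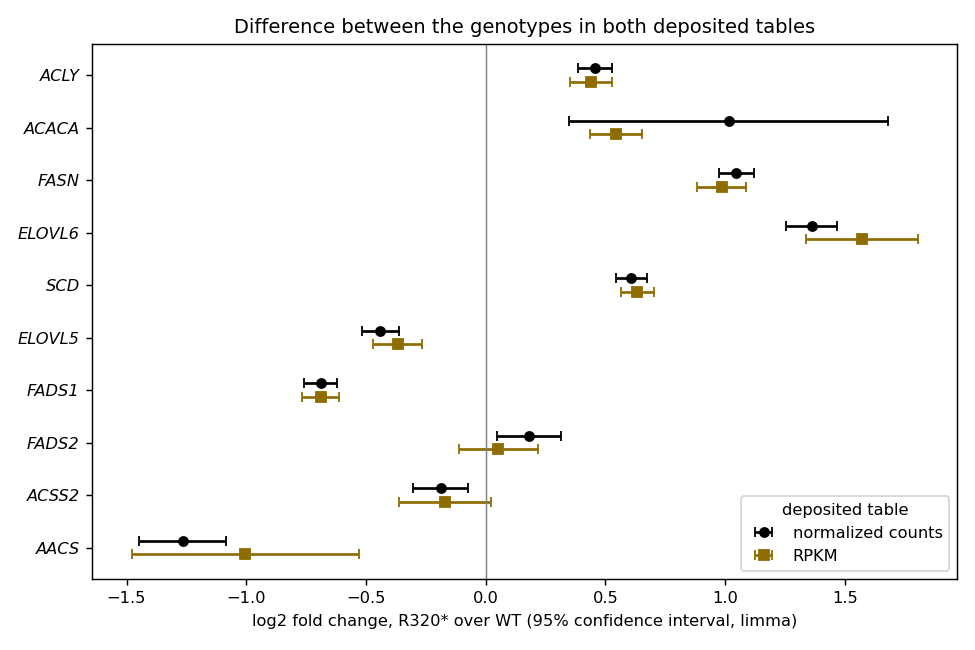
Log2 fold changes of the 10 genes, R320* over WT, with 95% confidence intervals from limma, in normalized counts (black circles) and RPKM (brown squares). ACACA has the widest interval in counts, and the RPKM intervals of FADS2 and ACSS2 include 0.

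FASN had a higher log2 fold change than all 45 tested genes nearest to it on chromosome 17, whose median was 0.12. ELOVL6 exceeded 49 of 50 on chromosome 4 and SCD 48 of 50 on chromosome 10, with medians of 0.00 and -0.01. The tested genes next to ELOVL6 both differed, in opposite directions. EGF had a log2 fold change of -3.80 (limma adjusted p = 7.94e-10) and ENPEP, at low counts, 1.31 (limma adjusted p = 0.00569). ACLY exceeded 43 of 50 on chromosome 17, and ELOVL5 was below 44 of 50 on chromosome 6. ACACA exceeded 47 of 50 on chromosome 17 by its value of 1.01 in counts. That value was 0.48 without R320* replicate 2 and 0.54 in RPKM, and the rank was not taken at those values. ACSS2 was below 40 of 50 on chromosome 20, and FADS2 was above 26 and below 24 of 50.

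**Figure D3:**
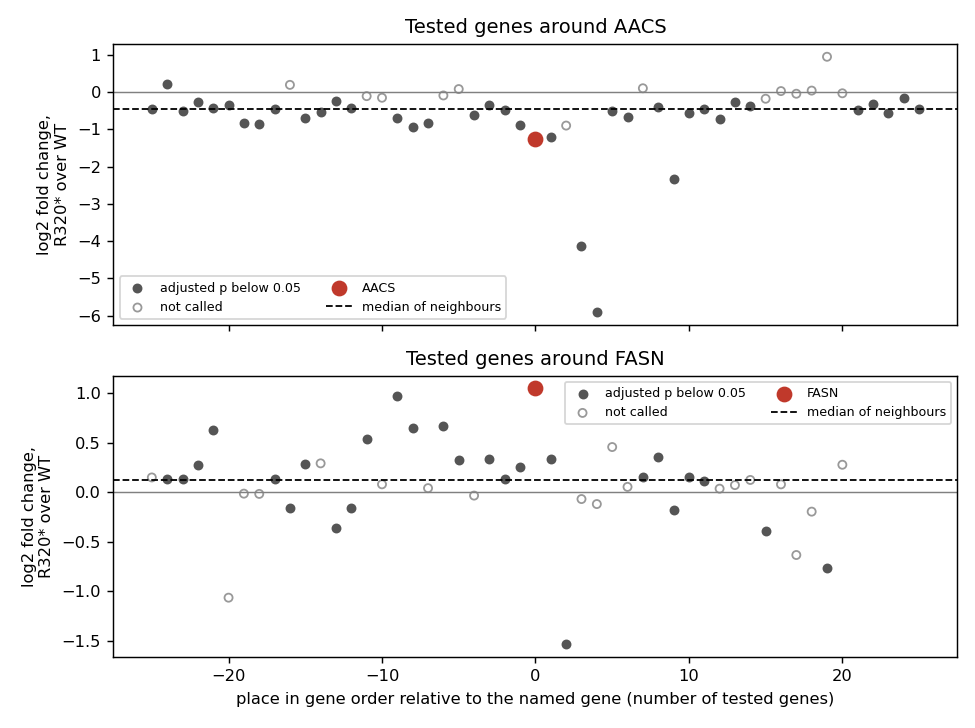
Log2 fold changes of normalized counts, R320* over WT, for the tested genes on each side of AACS (top) and FASN (bottom), placed by gene order. Filled points are called, open points are not, the dashed line is the median of the neighbours (-0.44 around AACS and 0.12 around FASN), and the named gene is red.

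Per transcript length, the order of the 10 genes changed at the top. In R320* cells SCD led with 444 ± 5.24 RPKM, ahead of FASN (265 ± 11.2), FADS1 (247 ± 6.56) and ELOVL5 (182 ± 8.85). In WT cells FADS1 led with 399 ± 5.49 RPKM, ahead of SCD (286 ± 3.73), ELOVL5 (234 ± 3.64) and FASN (134 ± 3.53). The R320* libraries of FASN and FADS1 overlapped, since the lowest for FASN was 253 and the highest for FADS1 255. Below these came, in R320*, ACLY, then ACACA and ELOVL6, whose libraries overlapped, then ACSS2, FADS2 and AACS. In WT the order below was ACLY, ACACA, ACSS2, FADS2, ELOVL6 and AACS, with no overlap between neighbours. As a share of the summed RPKM of the 10 genes, SCD held 30.7% ± 0.36 in R320* and 22.4% ± 0.19 in WT, FASN 18.3% ± 0.75 in R320* and 10.4% ± 0.14 in WT, and FADS1 17.1% ± 0.44 in R320* and 31.2% ± 0.44 in WT (SD, n = 3 each). The sum over ACLY, ACACA, FASN, ELOVL6 and SCD was 949 ± 10.2 RPKM in R320* and 569 ± 9.03 in WT, and the sum over ELOVL5, FADS1 and FADS2 was 456 ± 4.09 in R320* and 659 ± 8.56 in WT. All 10 genes together summed to 1446 ± 1.88 RPKM in R320* and 1279 ± 16.6 in WT, so the make-up of the group moved more than its total.

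**Figure D4:**
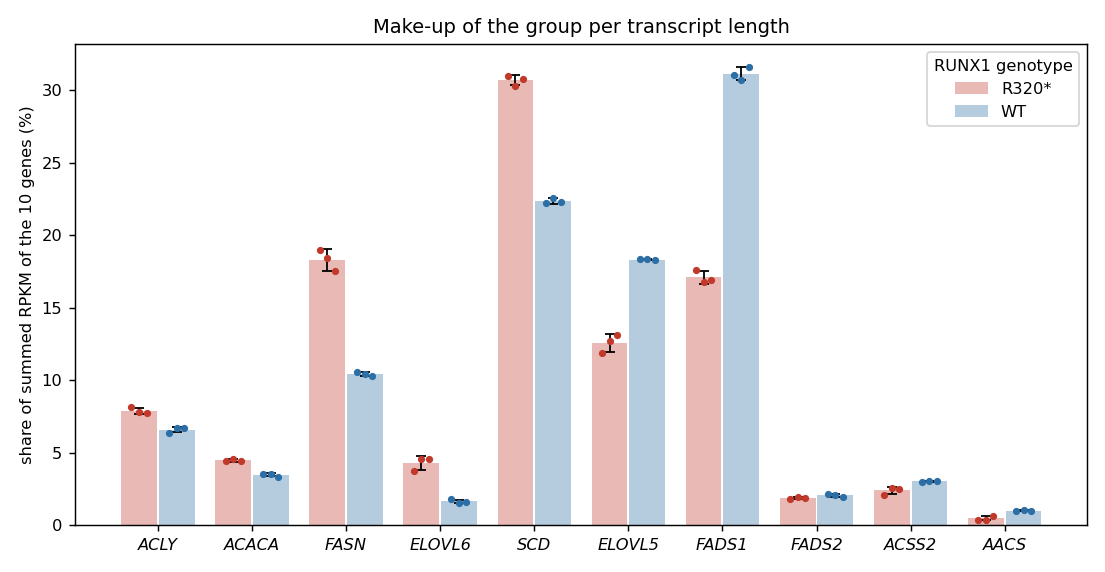
Share of each gene in the summed RPKM of the 10 genes in R320* (red, left) and WT (blue, right) libraries, with points for the 3 libraries, bars for means and error bars for SD. SCD and FASN take larger shares in R320*, and FADS1 and ELOVL5 take smaller ones.

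Genes around the pathway were taken from 11 lists chosen by role, with earlier results of these data known, so the shares below are description only. Of their 148 tested genes 55 (37.2%) were higher and 47 (31.8%) lower in R320*, against 26.4% and 27.4% of all genes tested. In RPKM these counts were 35 and 31 of 144, against 15.1% and 16.8%. Counts below are for normalized counts, with means ± SD of n = 3 libraries and adjusted p from limma. The shares of all genes tested given here are the background for each list below, and several lists lay near them.

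Of 19 tested regulators 10 were higher and 4 lower, and the median of the list was 0.15. The 4 lower ones were MLXIP (-0.87), NFYB (-0.42), NFYC (-0.20) and USF1 (-0.19). Of these, MLXIP and USF1 were also called lower in RPKM, and NFYB and NFYC were not called there. NFYA, a further NF-Y gene, was higher (0.33). INSIG1, which holds SREBP in the endoplasmic reticulum and is itself an SREBP target, had 13198 ± 221 in R320* and 7497 ± 151 in WT (log2 fold change 0.82, adjusted p = 6.62e-12). SREBF2, encoding the sterol-regulated SREBP, had 9976 ± 85.0 in R320* and 7964 ± 144 in WT (log2 fold change 0.33, adjusted p = 4.95e-07). SREBF1, encoding the SREBP forms most tied to fatty acid synthesis, had 7025 ± 313 in R320* and 6334 ± 122 in WT, a small difference (0.15, adjusted p = 0.00468). It was not called in RPKM (adjusted p = 0.0635) or when the intensity trend was dropped (adjusted p = 0.0576), and its adjusted p ran between 0.00115 and 0.0635 over all alternatives. MLXIPL, encoding the glucose-sensing factor ChREBP, was higher (0.73, adjusted p = 6.34e-07), and so were the LXR genes NR1H3 (0.61, adjusted p = 7.36e-05) and NR1H2 (0.20, adjusted p = 0.00403). SCAP (0.08, adjusted p = 0.121) and INSIG2 (-0.07, adjusted p = 0.625) were not called. The SCAP value was called under upper quartile scaling, and the values of both changed sign in RPKM.

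The list on control of acetyl-CoA carboxylase had 2 of 8 tested genes higher and 3 lower, with a median of -0.14. The AMP-activated protein kinase (AMPK), which phosphorylates and switches off the carboxylase, had lower transcript for the subunits PRKAG1 (-0.59, adjusted p = 1.93e-07) and PRKAB1 (-0.31, adjusted p = 4.45e-05). Its other tested subunits were not called. These were PRKAA1 (-0.08, adjusted p = 0.216), PRKAB2 (0.04, adjusted p = 0.726) and PRKAG2 (-0.20, adjusted p = 0.342). MID1IP1, whose protein promotes polymers of the carboxylase, had a value of 0.17 in counts (adjusted p = 0.00541) and -0.04 in RPKM, where it was not called. STK11, the kinase upstream of AMPK, was at 0.12 (adjusted p = 0.0316), and lost its call in 7 of 18 alternatives, among them without R320* replicate 2 or 3 or WT replicate 2 or 3 (adjusted p = 0.0732 to 0.135). With any 1 of these 4 libraries left out, 1 gene of the list was higher.

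Supply of citrate, acetyl-CoA and NADPH was split, with 7 of 15 genes higher and 6 lower and a median of 0.05. The mitochondrial citrate carrier SLC25A1, which feeds ACLY, had 14141 ± 306 in R320* and 11003 ± 138 in WT (0.36, adjusted p = 1.05e-07). Pyruvate carboxylase, PC, was higher (0.53, adjusted p = 1.33e-06). Citrate synthase, CS, had 10797 ± 107 in R320* and 14844 ± 389.8 in WT (-0.46, adjusted p = 6.63e-09), and the malate dehydrogenase MDH1 was lower as well (-0.46, adjusted p = 1.62e-07). Biotin and CoA supply had 3 of 11 genes higher and 3 lower, with a median of -0.03. Only 1 was lower without R320* replicate 2, without WT replicate 1, or under upper quartile or quantile scaling, and in RPKM 1 was higher and 0 lower. In it the phosphopantetheinyl transferase AASDHPPT, which arms the carrier domain of FASN, had a log2 fold change of 0.23 (adjusted p = 0.00218), the biotin ligase HLCS 0.18, and the pantothenate kinases PANK2 -0.37 and PANK3 -0.16. Of these 4, AASDHPPT was called in RPKM and the other 3 were not. PANK3 lost its call in 8 of 18 alternatives, among them without R320* replicate 2 or 3 or WT replicate 1 or 2 (adjusted p = 0.0920 to 0.132).

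Among the other enzymes of the elongation cycle 5 of 9 tested genes were higher and 1 was lower (median 0.15). ELOVL2, an elongase of long polyunsaturated chains, rose at a low level, with 330.1 ± 53.9 in R320* and 145 ± 22.1 in WT (1.18, adjusted p = 7.66e-06). The dehydratases HACD3 (0.25, adjusted p = 0.000823) and HACD1 (43.1 ± 7.22 in R320* and 8.70 ± 7.06 in WT, 2.62, adjusted p = 0.00168) were higher too, as was the reductase TECR (0.15, adjusted p = 0.00528), and HACD1 and TECR were not called in RPKM. Other desaturases and their electron supply had 3 of 10 genes higher and 2 lower (median -0.05), and 1 lower without R320* replicate 1 or WT replicate 1 or 2. Besides FADS3, the sphingolipid desaturase DEGS1 had 0.33 (adjusted p = 0.000102) and CYB5A, the cytochrome that carries electrons to SCD, 0.51 (adjusted p = 0.000756). CYB5R4 was at -0.25 in counts (adjusted p = 0.0164) and 0.06 in RPKM, where it was not called, and it lost its call in 7 of 18 alternatives. Mitochondrial fatty acid synthesis, a separate route, was listed together with LIAS, LIPT1 and LIPT2, which act after it in protein lipoylation. Of the 9 tested genes 3 were higher and 0 lower (median 0.01). The higher ones were MCAT (0.49, adjusted p = 2.48e-05), ACSF3 (0.28, adjusted p = 0.000906, not called in RPKM) and LIAS (0.16, adjusted p = 0.0381). The LIAS call was lost without R320* replicate 2 or 3, without WT replicate 1 or 3, and when the intensity trend was dropped (adjusted p = 0.0677 to 0.148). In counts LIPT2 was at 0.52 (adjusted p = 0.077), called only under quantile normalization among the alternatives.

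Fatty acid uptake and activation had the widest spread of values among the 11 lists, with 7 of 17 genes higher, 5 lower and a median of 0.01. CD36, a fatty acid and lipoprotein receptor, had 775 ± 27.7 in R320* and 138 ± 29.5 in WT (2.51, adjusted p = 1.4e-10). ACSL1, a long-chain acyl-CoA synthetase, went the other way with 33.9 ± 8.47 in R320* and 264 ± 17.1 in WT (-2.95, adjusted p = 5.33e-09). The fatty acid transport protein gene SLC27A6 had 451 ± 42.2 in R320* and 178 ± 22.1 in WT (1.34, adjusted p = 1.75e-07).

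Among acyltransferases and lipins of glycerolipid synthesis 10 of 20 tested genes were higher and 6 lower (median 0.18). The 10 higher genes include SOAT1 (0.40 in counts and 0.77 in RPKM), which esterifies cholesterol and is not itself an enzyme of glycerolipid synthesis. AGPAT4 had 6380.2 ± 103 in R320* and 3128 ± 94.2 in WT (1.03, adjusted p = 2.37e-12). DGAT2, which completes triacylglycerol from newly made fatty acids, had 446 ± 11.2 in R320* and 110.4 ± 9.58 in WT (2.01 in counts and 1.41 in RPKM), and the lysophospholipid acyltransferase LPCAT1 had 222 ± 8.02 in R320* and 79.0 ± 4.32 in WT (1.48 in counts and 0.67 in RPKM). GPAT3, a glycerol-phosphate acyltransferase, was lower, with 248 ± 25.2 in R320* and 887 ± 6.94 in WT (-1.84, adjusted p = 1.02e-10).

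In fatty acid oxidation 15 of 24 tested genes were lower and 3 higher, against 27.4% lower and 26.4% higher of all genes tested. The median was -0.21, against 0.01 for all genes tested. The 15 lower genes include the carboxylase ACACB, whose malonyl-CoA restrains mitochondrial import and which is not itself an enzyme of oxidation. In RPKM 12 of 26 were lower and 2 higher, against 16.8% and 15.1% of all genes tested, with the same median of -0.21. CPT1A, the gatekeeper of mitochondrial import that malonyl-CoA inhibits, had 1131 ± 76.8 in R320* and 2055 ± 34.1 in WT (-0.86, adjusted p = 2.68e-09). The short-chain dehydrogenase ACADS had 455 ± 14.1 in R320* and 921 ± 83.9 in WT (-1.01, adjusted p = 3.09e-08), and ETFB, which takes up electrons from such dehydrogenases, 2200.3 ± 84.1 in R320* and 3307 ± 209 in WT (-0.59, adjusted p = 7.7e-08). The peroxisomal enzyme HSD17B4 was lower in counts (-0.66, adjusted p = 1.35e-09) and not called in RPKM (adjusted p = 0.0564).

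Enzymes that make or use acetoacetyl-CoA, the product of AACS, were split, with 2 of 6 tested genes higher and 2 lower and a median of -0.07. Without R320* replicate 1 or 2 or WT replicate 1 or 3, 1 was lower. OXCT1, the mitochondrial transferase of ketone body use, had 939 ± 25.3 in R320* and 1702 ± 69.1 in WT (-0.86, adjusted p = 2.8e-09). The thiolases ACAT1 (0.73, adjusted p = 1.31e-10) and ACAT2 (0.37, adjusted p = 3.58e-06) were higher.

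**Figure D5:**
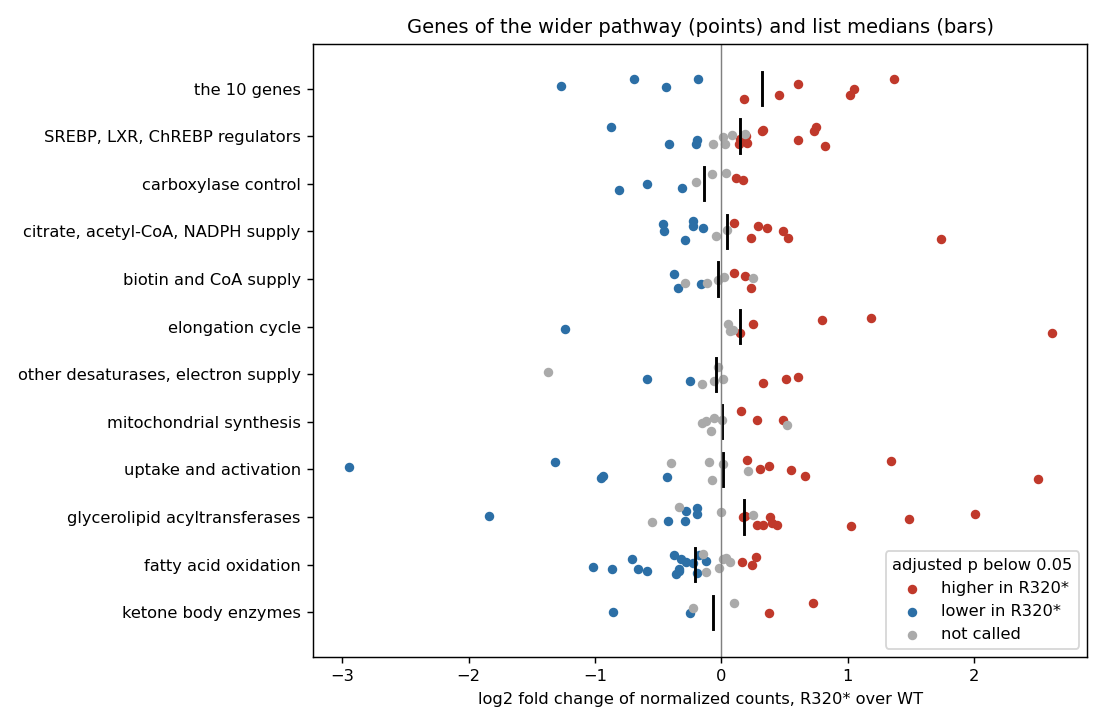
Log2 fold changes of normalized counts, R320* over WT, for the 10 genes and the 11 surrounding lists. Each point is a tested gene, red if called higher, blue if called lower and grey if not called, and the black bar is the list median, which is 0.32 for the 10 genes and -0.21 for fatty acid oxidation.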

How the data were processed

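RNA-seq of 6 K562 libraries was analysed, 3 of RUNX1 R320* and 3 of WT cells. Per the labels' protocols, RNA was taken with TRIzol and made into libraries with NEBNext reagents. The submitters' processing notes name the build hg38 and the tools HISAT2, featureCounts, Salmon and DESeq2. Their versions, the tool behind each table and the use of strand were not given in the sources used here. The deposited signal values are normalized counts, which the values show to be counts scaled by 1 factor per library, since 100% were whole multiples of the library's smallest value (within 1e-06). The deposited RPKM values were used as the authors made them, and a gene listed at 0 in that table need not be silent.

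Entrez identifiers were named with RefSeq GRCh38.p14 (27745 of 28395 matched). Values were taken as log2(normalized count + 1), keeping genes that reached 10 normalized counts in 3 or more libraries, and as log2(RPKM + 0.1), keeping genes that reached 0.5 RPKM in 3 or more. Both tables went through limma 3.58.1 under R 4.3.3 (intensity trend, Benjamini-Hochberg adjustment over all genes tested, called below 0.05). Log2 fold changes on these scales understate changes of low genes. Ratios between genes were compared by exact permutation over libraries. The 10 genes and the lists were chosen with earlier results of these data known. Genes named beyond the 10 were 8 regulators and, per other list, the 4 with the smallest adjusted p, plus neighbours by position. The 17q neighbours, GGT7 and the markers were named for a stated check. The lower regulators, NFYA and further AMPK subunits were named to show other directions or calls within their lists. Some genes that the rule picks are not reported here. Alternatives were other pseudocounts, filters, scalings and variance models, a block for replicate number, the omission of each library, and the RPKM table. Count tests and protein comparisons were planned and not run. Tested on simulated data, the fit recovered most of the larger known changes and fewer of the smallest. Figures were drawn with matplotlib 3.10.9.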

Additional observations from a re-analysis of the deposited data

How the results depend on the processing

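ACLY, FASN, SCD, AACS, ELOVL5, ELOVL6 and FADS1 kept their direction and call under all 18 alternatives tried, the RPKM table included. For genes called higher among the 10 the count was 4 to 6 with a library left out, and for genes called lower it was 4. Without the intensity trend ACACA (1.01), ACSS2 (-0.19) and FADS2 (0.18) were not called, and with robust moderation ACACA (1.01) was not. In the RPKM table ACSS2 (-0.17) and FADS2 (0.053) were not called, and the 11 surrounding lists had 35 genes higher and 31 lower, against 55 and 47 in counts. With each library left out in turn, log2 fold changes ran from 0.48 to 1.38 for ACACA and from 0.13 to 0.25 for FADS2 in counts, and from -0.00465 to 0.0927 for FADS2 in RPKM, where it changed sign without WT replicate 3. In RPKM, MID1IP1 (-0.0446), CYB5R4 (0.0627), SCAP (-0.0112) and INSIG2 (0.123) changed sign, as did INSIG2 under quantile normalization (0.0273) and without R320* replicate 3 (from -0.114 to 0.00646 with each library left out). The cause of these changes was not tested. Replicate numbers did not pair the libraries: deviations of same-numbered libraries correlated at 0.03, -0.00 and -0.00, and not every library correlated best with its own number. With the replicate number as a block, 3874 genes were higher and 3980 lower, against 3771 and 3914 without it, and the 10 genes stayed at 6 higher and 4 lower. The median log2 fold change of all genes moved by under 0.1 with any scaling, lying between 0.01 and 0.04. For AACS the 95% interval was -1.48 to -0.53 in RPKM and -1.45 to -1.08 in counts. Count tests on reads were not run.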

Other observations

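Among genes of the surrounding lists not described above, or named there by fold change only, 3 with a log2 fold change beyond 0.6 in either direction were called in both tables. They were chosen after their values were seen. RXRA, the partner of LXR, had 1946 ± 123 normalized counts in R320* and 1157 ± 73.0 in WT (SD, n = 3 each, log2 fold change 0.75, limma adjusted p = 4.08e-08). FABP5, a fatty acid binding protein, had 916 ± 57.2 in R320* and 579 ± 48.0 in WT (0.66, limma adjusted p = 3.78e-06). MLXIP, which encodes the glucose-sensing paralogue of ChREBP known as MondoA, went against MLXIPL, with 7821 ± 348 in R320* and 14286 ± 471 in WT (-0.87, limma adjusted p = 1.85e-11). The carboxylase ACACB, whose malonyl-CoA is known to restrain mitochondrial import, had 169 ± 11.5 in R320* and 278 ± 17.1 in WT (-0.71, limma adjusted p = 0.000231) and was not called in RPKM (limma adjusted p = 0.422). LPL, ACSL6 and ACSBG1 were likewise lower in counts, at -0.96, -0.94 and -1.31, and not called in RPKM.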
